A study of Bos taurus with 44 samples.

Results

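LTF encodes lactoferrin, an iron-binding glycoprotein of the transferrin family. The gene was represented by 8 of the 1680 spots of the array, the spots to which the platform annotation gives the single symbol LTF, and it is 1 of the 141 named genes on the array. It was selected on its measured log ratios in these cows, among them a large difference between high-Ab and low-Ab cows, and so with its values known. Its levels, differences and correlations are therefore given as a description, with SD or SE and with no test.

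Lactoferrin is stored in the secondary granules of neutrophils and is also secreted into milk and onto mucosal surfaces. It withholds iron from bacteria, and peptides from its N-terminal part damage bacterial membranes. Granule proteins are made while neutrophils mature in the bone marrow, so circulating mononuclear cells, which are mainly lymphocytes and monocytes, are not a main source of the transcript.

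The samples were blood mononuclear cells of Holstein cows, isolated on a Percoll gradient 6 days after immunization with antigens that promote antibody and cell-mediated responses. Cows were labelled high or low for the antibody response (Ab) or for the cell-mediated response (labelled DTH). The groups were high-Ab and high-DTH (1 cow, counted in both high groups and called the shared cow below), high-Ab (2 further cows), high-DTH (2 further cows), low-Ab (3 cows) and low-DTH (3 cows), all female and all immunized. The labels give no ages and no identities, so cows of different groups were taken as different animals, 11 in all. Each cow's amplified RNA was hybridised with a common RNA standard of the same cell kind to 3 to 5 spotted arrays with the dyes swapped on some of them, which gave 44 arrays. The values are deposited log ratios per spot, read here as log2 of cow over standard. A value of 0 is then the level of the standard, and no value says how much LTF transcript the cells held. In a mixture of cells, fewer cells of a type and less RNA per cell cannot be told apart.

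Neither the log base nor the direction of the ratio is stated in the sources used here, and all directions below would swap together under the opposite reading. The deposited values were centred on about 0, with array medians of −0.08 to 0.07. Of the 44 arrays, 3 correlated below 0 on average with the arrays of other cows (mean r between −0.23 and −0.20, against at least 0.05 for each of the other 41), and their sign is not settled. In low-Ab cow 1 these were array 1, with a mean LTF ratio of 0.42, and array 2, without any LTF value. In low-DTH cow 3 it was array 3, with a mean LTF ratio of 0.27. Values are given as deposited, and the differences also with these 3 arrays turned in sign. Pairs of arrays from different cows among the other 41 had r down to −0.34.

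LTF was the least completely measured of the 141 named genes. Of its 352 possible spot values (8 spots on 44 arrays) 200 were present and 152 were empty, or 43.2%. The next 2 genes were C4A, which encodes complement component 4, with 11.4% empty, and MIF, the macrophage migration inhibitory factor, with 8.81%. These 3 were the genes with over 5% empty values, 55 genes had none, and the median over the other 140 genes was 0.284%. Spots of vapA, a bacterial gene printed on the array, were empty in 1.14% of cases. The reason for an empty cell is not given in the sources used here.

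The empty values were spread over all LTF spots. Each of the 8 was empty on between 36.4% and 52.3% of arrays. LTF had no value on 6 arrays, 1 value on 4 arrays, 2 or 3 values on 9, between 4 and 7 on 14 and all 8 on 11. Over all spots and arrays, 1.93% of values were empty, and 35 of the 1680 spots were empty at least as often as LTF as a whole, namely 3 LTF spots and 32 spots without a single gene symbol.

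Where LTF spots had values, they also disagreed more than those of any other named gene. The median SD between LTF spots of an array was 0.79, against a median of 0.13 and a highest of 0.50 (C4A) over the other 140 genes. The spots lie in 4 adjacent pairs, and 2 adjacent LTF spots of an array differed by a median of 0.60 over 80 complete pairs, against a median of 0.11 and a highest of 0.43 among the other genes. CXCL8, a gene whose arrays also varied widely within a cow, had a spot SD of 0.07 and an adjacent-spot difference of 0.03. LTF spot values ran from −4.78 to 5.66, and 54 of them (27%) lay beyond 1 on either side of 0, against 4.00% of the values of the other named genes. The median over all 200 values was −0.02 and the SD 1.20.

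**Figure D1:**
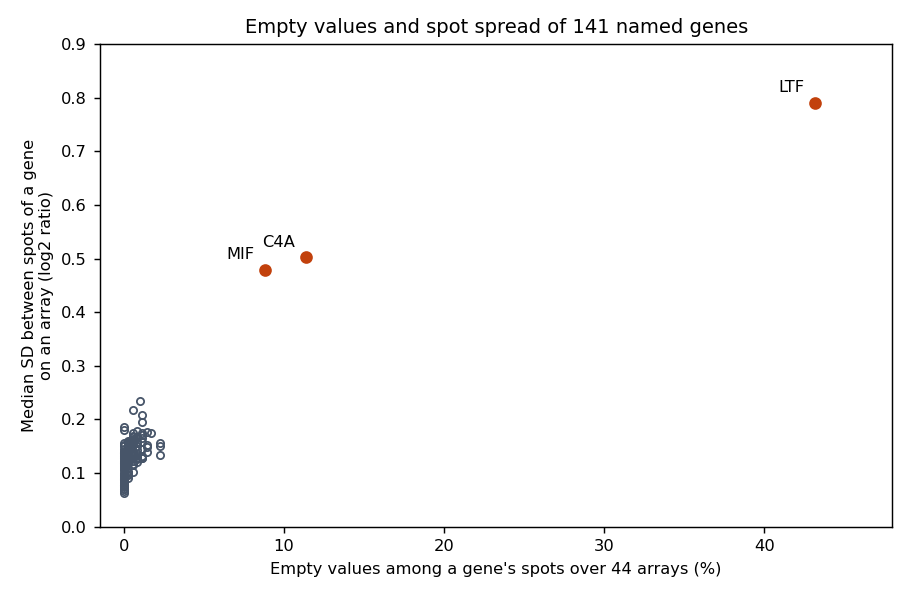
Percentage of empty values over 44 arrays (x axis) against the median SD between the spots of a gene on an array in log2 ratio (y axis), 1 point for each of 141 named genes. LTF stands alone at 43.2% and 0.79, C4A and MIF follow, and the other genes crowd near the origin.

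The fewer spots lay behind an array's LTF value, the farther that value could lie from 0. On the 11 arrays with all 8 spots the array mean lay between −0.68 and 0.38, with an SD of 0.30. On the 14 arrays with 4 to 7 values it lay between −0.96 and 1.46 (SD 0.63), and on the 9 arrays with 2 or 3 values between −1.17 and 1.84 (SD 0.99). The 4 arrays with a single value lay at −4.78, −4.65, −1.28 and −0.74, all below 0. All 4 belonged to high cows, namely array 5 of high-DTH cow 2, array 1 of high-Ab cow 2, and arrays 2 and 3 of high-Ab cow 3.

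**Figure D2:**
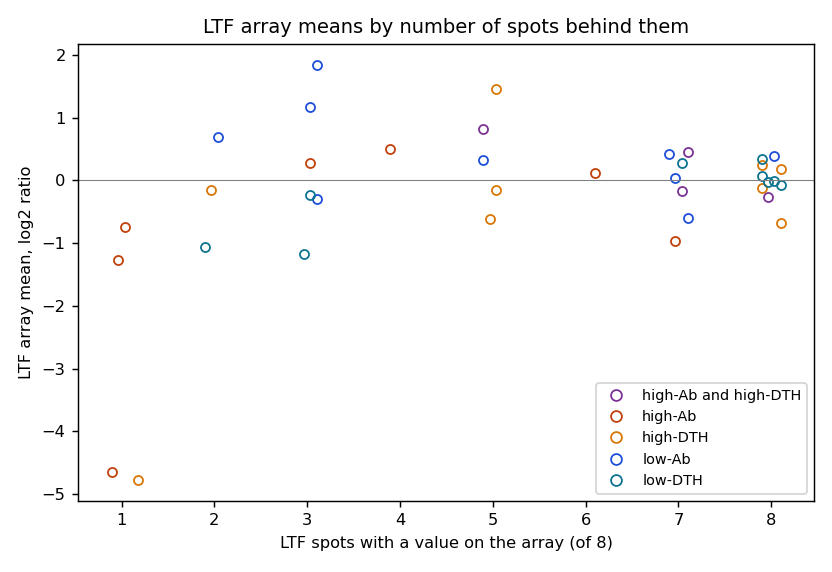
Mean LTF log2 ratio of an array (y axis) against the number of its 8 LTF spots with a value (x axis), 1 point for each of 38 arrays, coloured by label group and shifted sideways by array number. The means narrow around 0 as the number of spots grows, and the single-spot arrays all lie below 0.

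Arrays of 1 cow, which hold the same RNA, differed for LTF about as much as arrays of different cows. The SD between arrays of a cow was 1.26 for LTF, the highest of the 141 genes, with a median of 0.25 over the other 140. In 8 of 11 cows the arrays with a value lay on both sides of 0. An analysis of variance over the 38 arrays put 0.19% of the LTF variance between cows, against a median of 12.5% over the other genes. LTF ranked 97th of the 141 genes in this share, and all genes ranked below it had 0%, so a share this low was not particular to LTF. That analysis weights each array alike, whatever its number of spots.

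Cow values were obtained by averaging spots, then arrays within each dye orientation, then the 2 orientations. In high-Ab cows LTF was at 0.21 in the shared cow, −1.57 in cow 2 and −0.35 in cow 3, against −0.02, 0.12 and 1.30 in low-Ab cows 1, 2 and 3. In high-DTH cows it was at 0.21 in the shared cow, −0.53 in cow 2 and −0.19 in cow 3, against −0.29, −0.28 and 0.18 in low-DTH cows 1, 2 and 3. The groups overlapped in both comparisons. Over all 11 cows the mean was −0.13 ± 0.68 (SD), the third largest SD between cows among the 141 genes. Of the 11 cows 9 lay within 0.6 of 0, and the cows at the ends were low-Ab cow 3 and high-Ab cow 2.

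Both end values rested on few spots. In high-Ab cow 2, array 1 had 1 spot at −4.65, array 2 averaged −0.96 over 7 spots, array 3 averaged 0.27 over 3 spots and array 4 had none. In low-Ab cow 3, array 1 averaged 0.32 over 5 spots, array 3 averaged 1.17 over 3 spots, array 4 averaged 1.84 over 3 spots and array 2 had none. Each of these 2 cows had 11 of 32 possible values, the fewest of all cows. Array 4 of low-Ab cow 3 and array 3 of high-Ab cow 2 were also the arrays with the most empty cells of the table, 81 and 107 of 1680 spots.

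In high-Ab cow 3 the arrays averaged 0.50 over 4 spots, −1.28 and −0.74 on 1 spot each, and 0.11 over 6 spots. In high-DTH cow 2 they averaged −0.13 over 8 spots, −0.62 over 5, 1.46 over 5 and 0.19 over 8, and the last array had 1 spot at −4.78. The array at 1.46 held spots from −2.66 to 5.66, the widest range of any array. In the shared cow, the most completely measured of the 11 with 27 of 32 values, the arrays averaged 0.82, −0.27, −0.17 and 0.46. The closest arrays belonged to low-DTH cow 3, at 0.08 over 8 spots and 0.27 over 7 spots, the array at 0.27 being of unsettled sign, with none on the array between them. Over cows the SD between arrays ran from 0.14 to 2.56, with a median of 0.64.

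In order from high to low, low-Ab cow 3 was followed by the shared cow, low-DTH cow 3, low-Ab cow 2, low-Ab cow 1, high-DTH cow 3, low-DTH cow 2, low-DTH cow 1, high-Ab cow 3, high-DTH cow 2 and high-Ab cow 2. For 8 of the 10 pairs of neighbours the gap was at most 0.18, below the SE of their difference (at least 0.85, from the SD of 1.26 between arrays of a cow and the number of arrays with a value). The gaps at the ends, 1.09 below low-Ab cow 3 and 1.04 above high-Ab cow 2, exceeded their SEs of 0.96 and 0.92. Those SEs use the SD pooled over all cows, and these are the widest gaps of a sorted list. The SD between arrays was 2.56 in high-Ab cow 2 and 2.37 in its neighbour high-DTH cow 2. It was 0.76 in low-Ab cow 3 and 0.52 in the shared cow. The lower gap is thus not shown to exceed the array spread of its own cows.

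**Figure D3:**
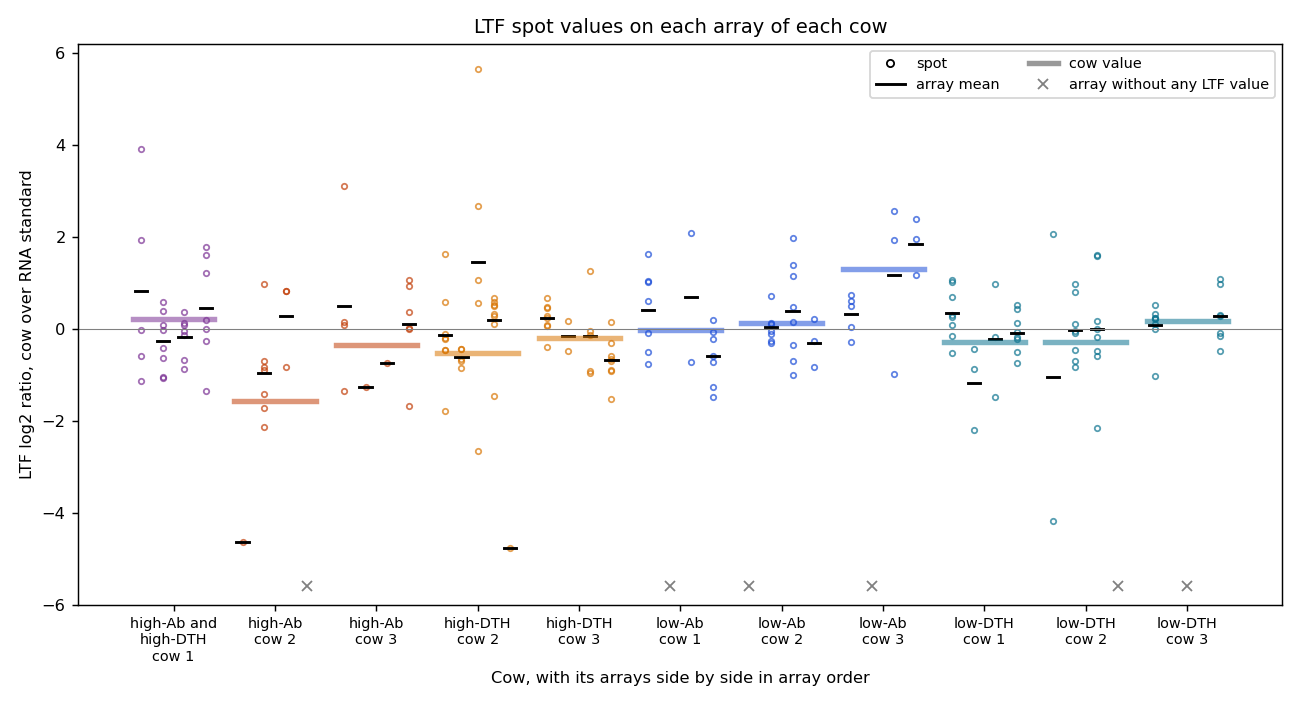
LTF log2 ratio of every spot (open circles), mean of each array (short black bars) and value of each cow (broad coloured bars) for 11 cows, with the arrays of a cow side by side and crosses at the foot for arrays without any LTF value. The spots of a single array span much of the range covered by all cows, and the lowest 2 array means are single spots.

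LTF was selected with its difference between cows of high and low antibody response known, so its rank there was built into the choice. High-Ab cows averaged −0.57 ± 0.91 for LTF and low-Ab cows 0.47 ± 0.72 (SD, n = 3 each), a difference of −1.04 ± 0.54 (SE from limma, whose moderated variance borrows from all features). This was the largest difference in size of the 141 genes, in the gene with the widest spot spread and the most empty values. No feature of the table passed at a limma adjusted p of 0.05 (0% of 562 features, while 37 had an unadjusted p under 0.05, or 6.58%). High-Ab and low-Ab cows did not overlap for 10.6% of the 141 genes, and LTF was not among them. With the median over spots in place of the mean (−1.18), and over arrays with the cow in Alexa647 alone (−1.22), the LTF groups did not overlap.

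The size of this difference moved with the arrays admitted. Using only arrays with a value on at least 4 of the 8 LTF spots, high-Ab cows averaged −0.15 ± 0.71 and low-Ab cows 0.15 ± 0.21 (SD, n = 3 each), a difference of −0.30 ± 0.35, which ranked 18th in size. Under this filter high-Ab cow 2 (−0.96, cow in Alexa555) and low-Ab cow 3 (0.32, cow in Alexa647) were each represented by 1 array. Leaving out the arrays with a single LTF value gave −0.38 ± 0.32 (rank 15), and the mean over all spot values of a cow gave −0.62 ± 0.38 (rank 5). Those 3 alternatives were chosen after the values had been seen, and they do not balance the 2 dye orientations. The plain mean over all arrays, also without that balance, gave −1.08. Without high-Ab cow 2 the difference was −0.54, and without low-Ab cow 3 it was −0.62. Arrays 1 and 2 gave −1.23 and arrays 3 to 5 gave −0.50, while high-Ab cow 2 itself had −2.81 from the first array set and 0.27 from the second. The difference was −0.97 with the 3 arrays of unsettled sign turned. Its sign was negative under each alternative, all of which reuse the cows whose difference was known at the choice of the gene.

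Between cows of high and low cell-mediated response, LTF did not stand out. High-DTH cows averaged −0.17 ± 0.37 and low-DTH cows −0.13 ± 0.26 (SD, n = 3 each), a difference of −0.04 ± 0.22 (SE) that ranked 101st in size among the 141 genes. No feature passed (0% of 565 at a limma adjusted p of 0.05, with 9.73% at an unadjusted p under 0.05), and 15.6% of genes had no overlap, LTF not among them. The 2 dye orientations lay on opposite sides of 0, at 0.48 with the cow in Alexa647 and −0.56 with the cow in Alexa555. In high-DTH cow 2 the orientations averaged 0.67 and −1.74, the lower one drawn from 3 arrays of which 1 had a single spot at −4.78. With the 3 arrays of unsettled sign turned the difference was 0.05, without single-spot arrays it was 0.24, and without high-DTH cow 2 it was 0.14.

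Taking each cow once, the 5 high cows averaged −0.49 ± 0.67 and the 6 low cows 0.17 ± 0.59 (SD), a difference of −0.66 ± 0.34 (SE), the largest in size of the 141 genes. It ranked 2nd with the 3 arrays of unsettled sign turned (−0.58), 6th with quantile normalization (−0.45) and 11th over arrays 3 to 5 (−0.43). Without high-Ab cow 2 it was −0.38, and without low-Ab cow 3 it was −0.43. With the filter of at least 4 spots it was −0.21 ± 0.20 and ranked 19th, and without single-spot arrays it was −0.10 and ranked 41st. Here too 0% of 561 features passed (limma adjusted p of 0.05), with 3.57% at an unadjusted p under 0.05, and the groups did not overlap for 1.42% of genes, LTF not among them. The high-minus-low difference for Ab minus that for DTH was −0.997 ± 0.517 (the 2 share a high cow), or −0.28 ± 0.37 with that filter, in a fit of all 11 cows in which 7 of 561 features passed (1.25%, with 10.2% at an unadjusted p under 0.05). It was −0.50 without high-Ab cow 2, −0.58 without low-Ab cow 3 and −1.02 with the 3 arrays turned. The low groups of the 2 traits differed by 0.60 ± 0.36 (low-Ab minus low-DTH), or 0.05 ± 0.14 with the filter. This difference was 0.18 without low-Ab cow 3 and 0.62 with the 3 arrays turned.

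**Figure D4:**
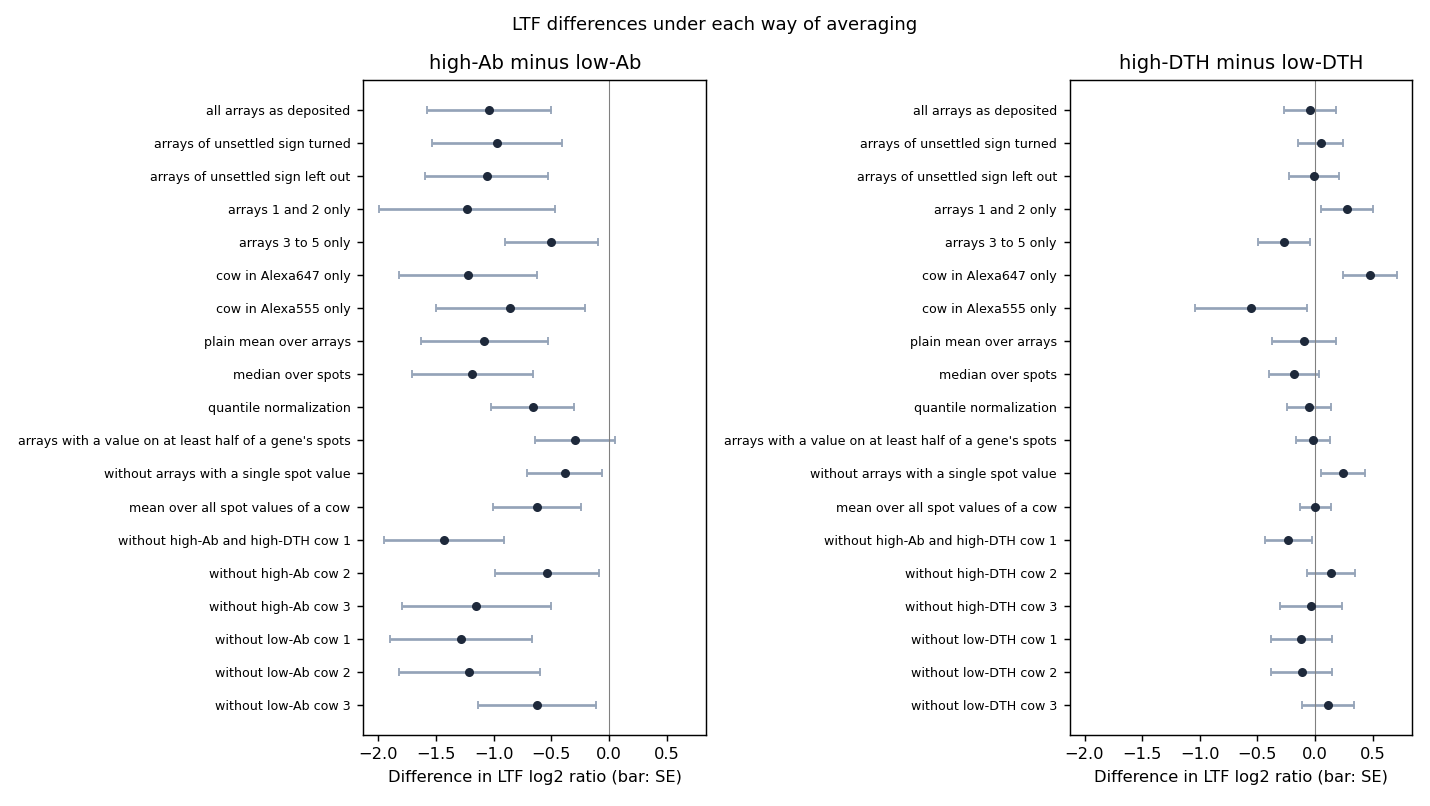
Difference in LTF log2 ratio, high minus low, for Ab (left) and DTH (right) under each way of averaging, with the SE from limma as bars. The Ab difference keeps its sign and is smallest with arrays that have at least 4 of the 8 spots, while the DTH difference lies on either side of 0.

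The share of empty LTF values was compared over cows in 3 tests, added after the values had been seen. The gene was chosen on its log ratios, but the empty cells belong to the same spots and arrays. Far array values also went with few spots, so these tests are not independent of the choice. High-Ab cows lacked 47.9% ± 28.0 of their LTF spot values and low-Ab cows 53.1% ± 11.3 (mean ± SD of cow percentages, n = 3 each, two-sided exact permutation p = 0.9, adjusted 0.9). High-DTH cows lacked 25.4% ± 8.76 and low-DTH cows 37.5% ± 6.25 (n = 3 each, exact permutation p = 0.2, adjusted 0.6). With 3 cows against 3 this test cannot give a p below 0.1. The 5 high cows lacked 40.9% ± 22.1 and the 6 low cows 45.3% ± 11.8 (exact permutation p = 0.684, adjusted 0.9).

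How far the LTF value of a cow repeated between sets of its own arrays is given as a description. The LTF ratio with the cow in Alexa647 exceeded that with the cow in Alexa555 in 7 of 11 cows, by 0.26 on average, and the orientations lay on opposite sides of 0 in 5 cows. Over the 11 cows the 2 orientations had r = 0.28 and rho = 0.20. Without high-Ab cow 2 and low-Ab cow 3, r was −0.49 over 9 cows. Arrays 1 and 2 against arrays 3 to 5 had r = 0.09 and rho = 0.35. Without high-Ab cow 2 and low-DTH cow 2, the cows farthest from the median of arrays 1 and 2, r was 0.59 over 9 cows. A low r between these array sets was not particular to LTF. With plain means over arrays it was 0.08 for LTF, against a median of 0.12 over the other 140 genes (from −0.81 to 0.88). Low-Ab cow 1 and low-DTH cow 3 enter these values with arrays of unsettled sign.

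Other neutrophil genes gave little to set beside LTF. Of 29 genes listed as neutrophil granule or secreted products LTF alone was among the named genes, so no other granule gene of the list stands beside it. Of 17 neutrophil surface, chemoattractant and growth factor genes 6 were measured. In high-Ab against low-Ab cows 1 of the 6 was higher and 5 were lower, with a median of −0.04 against −0.01 over all 141 genes. Of the 6, 0 passed, where 0% of all features passed. The chemokine receptor CXCR2, which guides neutrophils, averaged 0.05 ± 0.12 in high-Ab cows, against 0.06 ± 0.03 in low-Ab cows (SD, n = 3 each), a difference of −0.02 ± 0.10 (limma adjusted p = 0.999). CXCL8, the chemokine it binds, differed by −0.70 ± 0.44 (limma adjusted p = 0.880), at −0.59 ± 0.85 in high-Ab cows against 0.11 ± 0.45 in low-Ab cows (SD, n = 3 each).

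CSF3, the granulocyte growth factor, differed by −0.01 ± 0.11 in the Ab comparison. The shared cytokine receptor chain CSF2RB (−0.07 ± 0.08) was the 1 member of the 6 without overlap, where 10.6% of all 141 genes had none. The Fc receptors FCGR3A (−0.23 ± 0.55) and FCGR2B (0.06 ± 0.19) are carried by other blood cells too. In high-DTH against low-DTH cows 3 of the 6 were higher and 3 lower (median 0.01, against −0.03 over all genes). Of the 6, 0 passed, where 0% of all features passed. CXCL8 averaged 0.05 ± 0.85 in high-DTH cows, against −0.99 ± 0.66 in low-DTH cows (SD, n = 3 each), a difference of 1.04 ± 0.50 (limma adjusted p = 0.576).

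Of the 8 genes listed for iron binding and uptake, SLC11A1 was measured besides LTF. It encodes a divalent metal transporter of phagocyte vesicles that limits growth of intracellular bacteria. It differed by 0.07 ± 0.20 between high-Ab and low-Ab and by −0.12 ± 0.12 between high-DTH and low-DTH cows, and its correlation with LTF over 11 cows was −0.46. Of 10 genes listed as reported lactoferrin inducers and receptors 3 were measured. Of these, 0 passed in either comparison, where 0% of all features passed. Prolactin is a hormone reported to raise lactoferrin in mammary tissue, and estrogen does so in the uterus of mice. The hormone gene PRL differed by 0.05 ± 0.09 and the receptor gene PRLR by −0.14 ± 0.08 (limma adjusted p = 0.880) in the Ab comparison. PRLR had no overlap between groups there, as had 10.6% of all 141 genes. In the DTH comparison PRL differed by −0.06 ± 0.08 and PRLR by −0.02 ± 0.08. ESR2, an estrogen receptor gene, differed by −0.01 ± 0.09 in the Ab comparison and 0.03 ± 0.10 in the DTH comparison. Of 17 genes listed for microbial sensing and inflammation 8 were measured, and 0 passed in either comparison. In high-Ab against low-Ab cows 2 of the 8 were higher and 6 lower (median −0.14), and in high-DTH against low-DTH cows 5 were higher and 3 lower (median 0.12). In the difference between the 2 effects 2 of the 8 passed, the interleukin 1 genes IL1A (limma adjusted p = 0.0421) and IL1B (limma adjusted p = 0.0393), where 1.25% of all features passed. No feature passed there with the 3 arrays of unsettled sign turned or left out, with either dye or either array set alone, with quantile normalization or with the cow number as a block.

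Markers of other cell types did not pass in either comparison, where 0% of all features passed. Of all 141 named genes, 77 were lower in the Ab comparison and 85 were lower in the DTH comparison. In high-Ab against low-Ab cows the 6 measured monocyte genes were all lower (median −0.07), 7 of 8 T cell genes were higher (median 0.30), 3 of 4 B cell genes were lower (median −0.04), and both natural killer cell genes were lower (median −0.19), with 0 called in each list. In high-DTH against low-DTH cows 4 of the 6 monocyte genes were higher (median 0.06), 7 of 8 T cell genes were higher (median 0.26) and all 4 B cell genes were lower (median −0.28), again with 0 called. Both natural killer cell genes were lower there as well (median −0.14), and the 1 measured gamma delta T cell gene differed by 0.76 for Ab and 0.45 for DTH. The lists overlap, so their counts are not independent. The monocyte list shares measured genes with that for microbial sensing, and FCGR3A, given above with the neutrophil genes, is also 1 of the natural killer cell genes. The part of cell composition in the LTF values was not tested. No platelet or red cell gene of the list was among the named genes.

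Of the other 140 genes, those whose cow values ran most like LTF over the 11 cows were PRP6, a placental member of the prolactin family (r = 0.81), the chemokine receptor CXCR4 (0.75), the T cell costimulatory receptor CD28 (0.68), the growth hormone releasing hormone receptor GHRHR (0.63) and PRLR (0.60). Those running most opposite were PRL (−0.68), the growth factor binding protein IGFBP3 (−0.64), complement component C3 (−0.63), the cytokine LTB (−0.56) and the proteasome subunit PSMC5 (−0.54). These are the ends of 140 correlations, whose median size was 0.20, and the genes share arrays and dyes with LTF. No p is given for them.

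The rank correlations of the 5 highest were 0.27 for PRP6, 0.71 for CXCR4, 0.59 for CD28, 0.41 for GHRHR and 0.36 for PRLR. Low-Ab cow 3, the highest cow for LTF, was also the highest for PRP6 (0.24), CXCR4 (1.08) and CD28 (0.13), and high-Ab cow 2, the lowest for LTF, was the lowest for PRP6 (−0.18), CXCR4 (−0.44) and CD28 (−0.07). Without these 2 cows r was −0.33 for PRP6, 0.16 for CXCR4, 0.22 for CD28, −0.08 for GHRHR and −0.08 for PRLR, all smaller in size than over the 11 cows. The 5 lowest stayed below 0 without them, at −0.39 for PRL, −0.47 for IGFBP3, −0.50 for C3, −0.08 for LTB and −0.41 for PSMC5. With arrays that had at least 4 LTF spots (and at least 50% of the other gene's), r over all 11 cows was 0.80 for CD28, 0.62 for PRLR, 0.56 for PRP6, 0.56 for GHRHR and 0.45 for CXCR4. Under the same setting, chosen after the values had been seen, it was −0.84 for IGFBP3, −0.75 for LTB, −0.48 for PSMC5, −0.36 for PRL and −0.30 for C3. Without the 2 cows, none of the 5 highest or 5 lowest was still among the 5 at its end.

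The correlations were also taken across different arrays, so that LTF and the other gene shared no hybridisation. With LTF from arrays 1 and 2 and the other gene from arrays 3 to 5, all 5 highest stayed above 0 and all 5 lowest below 0. With LTF from arrays 3 to 5 and the other gene from arrays 1 and 2, 2 of the 5 highest (CXCR4 at 0.57 and GHRHR at 0.34) stayed above 0 and 3 of the 5 lowest did not stay below it. PRP6 was at −0.13 there and had r = −0.81 between its own array sets over the 11 cows. CXCR2 had r = 0.28 with LTF over all cows and −0.28 without the 2 cows, and CXCL8 had 0.24 and −0.38.

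**Figure D5:**
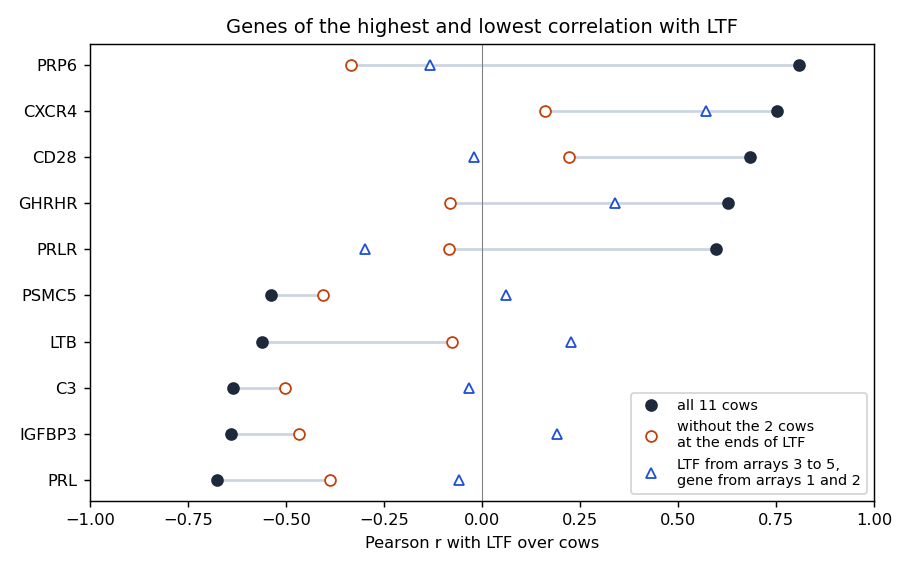
Pearson r with LTF over cows for the 5 genes of the highest and the 5 of the lowest correlation, over all 11 cows (filled circles), without low-Ab cow 3 and high-Ab cow 2 (open circles), and with LTF and the gene taken from different arrays (triangles). The 5 highest fall to 0.22 or below without the 2 cows.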

How the data were processed

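The authors deposited a value for each spot of each array, taken here to be log2 ratios of cow over standard. Scanner, background correction, normalization, log base and direction are not stated in the labels used. Arrays have no read depth, and the files give no signal, so the part of signal in the precision was not tested. Genes were named from the platform annotation, leaving out 16 spots with several symbols and 440 with none; 137 of 141 symbols matched RefSeq by Entrez ID. Spots were averaged, then arrays within dye orientation, then orientations, giving 1 value per cow, with no pseudocount. Features measured in both orientations of every cow were fitted with limma 3.58.1 (R 4.3.3, Benjamini-Hochberg, threshold 0.05), checked on simulated data. Shares of empty values were tested by exact permutation over cows (SciPy 1.17.1).

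Named genes were LTF, the measured members of the neutrophil and iron lists, and the 5 highest and 5 lowest correlations with LTF. C4A, MIF, ESR2, IL1A, IL1B and vapA fall outside that rule and were named with their values seen. The gene, the lists and this rule were chosen with earlier results of these data known. P-values rest on the spread between these cows, and those from limma also on a variance moderated toward that of all features. Alternatives changed the spot and array averaging, the arrays used, dye orientation, normalization, the 3 arrays of unsettled sign, the cows included and a block for cow number. The cow numbers do not pair the cows.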

Additional observations from a re-analysis of the deposited data

Results flagged for a closer look

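In 5 of 43 sets of values screened for an outlying value (5 high or 6 low cows, or the LTF arrays of a cow), a cow lay far from the others by Dixon's criterion. LTF was chosen with its values known, so this count is a description and is not set against a chance rate. For LTF, low-Ab cow 3 was at 1.30 among the 6 low cows, with the nearest cow at 0.18. The same cow was the outlying low cow for CXCR4, at 1.08 with the nearest at 0.06, and for PRP6, at 0.24 with the nearest at 0.04. Among the 5 high cows, high-Ab cow 2 was at −0.090 for CXCR2 with the nearest at 0.07, and at −0.068 for CD28 with the nearest at 0.08. PRP6, CXCR4 and CD28 were named for their correlation with LTF over these same cows, so their values are not independent of the LTF value.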

How the results depend on the processing

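The LTF difference between high-Ab and low-Ab cows was negative under 13 of 13 alternatives, from −1.23 to −0.30, and from −1.43 to −0.54 with 1 cow left out. LTF was chosen with this difference known and the alternatives reuse the same cows, so the shared sign is a description and no independent support. The block for cow number, 1 of the 13, cannot change the difference in this balanced comparison. The difference between high-DTH and low-DTH cows had no stable sign: 0.48 with the cow in Alexa647, −0.56 with the cow in Alexa555, and −0.23 to 0.14 with 1 cow left out. With arrays valued on at least 4 LTF spots, low-Ab minus low-DTH was 0.051, the Ab effect minus the DTH effect −0.28 and the SD between cows 0.37. That SD was 0.42 without single-spot arrays, and 0.45 with quantile normalization as with the mean over all spot values. The Ab effect minus the DTH effect was −0.23 over arrays 3 to 5, −1.70 with the cow in Alexa647 and −0.30 with the cow in Alexa555. The 7 features called for that difference became 4 with the plain mean over arrays, the filter of 4 spots, no single-spot arrays or all spot values, 0 with the arrays of unsettled sign turned or left out, arrays 1 and 2, arrays 3 to 5, either dye alone or quantile normalization, and 0 to 7 with 1 cow left out. For Ab, leaving out a cow gave 0 to 1 calls, the 1 without the shared cow. The cow number as a replicate block gave −1.04 ± 0.42 for LTF in the Ab comparison and 0 calls for the difference of effects; deviations of same-numbered cows correlated between −0.59 and −0.01. The cause of these changes was not tested.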
